A study of Mus musculus with 18 samples.

Results

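The data set described here compares Id3- effector regulatory T cells (Id3- eTR) with Id3+ central regulatory T cells (Id3+ cTR) sorted from the peripheral lymph nodes of the same animals. Its members are 6 RNA-seq libraries of the 18 in the series, 3 per population, chosen by the tissue and population in the sample labels and paired by mouse number (84, 86 and 87). Another 3 lymph node libraries, of Id3+ effector regulatory T cells (Id3+ eTR), and the same populations from spleen serve for comparison. All 3 mice were littermates on the C57BL/6 background with 2 reporter alleles, Id3-GFP and Foxp3-mRFP, so that every population carries both, and the labels do not say how many copies. The Id3- eTR gate is labelled only as GFP-negative and effector, with no CD44 or CD62L level given. The Id3+ eTR gate was CD62L-low and CD44-high and the Id3+ cTR gate CD62L-high and CD44-low. Each library was made from 500 sorted cells. The series title asks how the expression of Id3 changes as regulatory T cells differentiate into tissue-resident cells.

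Regulatory T cells are CD4+ T cells that restrain other immune cells and depend on the transcription factor Foxp3. Central cells circulate between blood and lymph nodes, which they enter with the help of the chemokine receptor CCR7 and leave towards the lipid sphingosine 1-phosphate. Effector cells have lost much of that equipment and carry receptors for inflamed and barrier tissues. Id proteins, Id3 among them, are helix-loop-helix proteins that lack a DNA-binding region and hold E proteins away from their sites in DNA.

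The 3 Id3- eTR libraries held between 2574681 and 2815399 counts each and the 3 Id3+ cTR libraries between 2593085 and 2988373. At least 1 count was found for 14587 to 14689 genes of an Id3- eTR library and 14214 to 14302 genes of an Id3+ cTR library. The mitochondrial share lay between 0.391% and 0.422% for Id3- eTR and between 0.385% and 0.433% for Id3+ cTR. Levels are given as CPM, counts scaled by the library total after TMM correction, for mice 84, 86 and 87 in this order. CPM takes no account of gene length, so levels are compared between populations and not between genes. The gene with most counts held 0.153% to 0.169% of each of the 6 libraries, and B2m had 1385 to 1472 counts in each. Whether counts of genes dense in counts per kb of exon are capped, which would make their differences too small, was not tested. The densest 5% of tested genes include Batf, Capg, Ctla4, Icos and Lgals1, named below. A difference is the log2 fold change of Id3- eTR over Id3+ cTR ± SE, with 3 libraries per group. All adjusted p-values are from edgeR's quasi-likelihood test, with Benjamini-Hochberg adjustment over the 12445 of 37991 genes that passed a filter on low counts, and calls were made below 0.05. The spread behind them is that between libraries of 3 littermates. The RNA is a bulk measure, so a larger share of cells with a transcript and more transcript per cell cannot be told apart.

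The cells expressed Foxp3 and Cd4 at levels that differed little between the populations. Foxp3 stood at 276, 308 and 271 CPM in Id3- eTR and 268, 267 and 262 CPM in Id3+ cTR (0.10 ± 0.14, adjusted p = 0.733). Every Id3- eTR library was slightly above every Id3+ cTR library, but the gene was not called. The groups overlapped for Cd4, with 263 to 291 CPM in Id3- eTR and 234 to 293 CPM in Id3+ cTR. They also did for Il2ra, the high-affinity chain of the IL-2 receptor, with 577 to 683 CPM in Id3- eTR and 594 to 707 CPM in Id3+ cTR. Cd44, which encodes a hyaluronan receptor used in the sort, stood at 359, 284 and 278 CPM in Id3- eTR against 92.7, 45 and 106 CPM in Id3+ cTR. The groups did not overlap, but since the sort used this protein these values check the gates and are no finding.

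Markers of other cells were present, many of them at low counts but some, such as Ighm and Cd74, at high counts. The summed counts of 13 myeloid and dendritic cell markers lay between 841 and 996 per library in Id3- eTR and between 408 and 441 in Id3+ cTR, with Csf1r, Itgax, Csf3r and Clec9a at 0 in all 6 libraries. Of the 6 of them that were tested, 4 were called higher. Lyz2 was not called (3.36 ± 1.14, adjusted p = 0.0636), but the groups did not overlap. It had 866 counts in Id3- eTR, 198 to 375 per library, and 86 in Id3+ cTR, 14 to 53 per library. All 4 calls could be lost by leaving out 1 library. Cst3 lost its call without any of the 6, Spi1 without the Id3+ cTR library of mouse 84, 86 or 87 or the Id3- eTR library of mouse 87, Tyrobp without the Id3+ cTR library of mouse 86 or the Id3- eTR library of mouse 87, and Fcer1g without the Id3+ cTR library of mouse 87. Those of 10 markers of CD8 T and NK cells lay between 642 and 863 in Id3- eTR and between 189 and 288 in Id3+ cTR, with Ncr1 at 0. Nkg7 had 1177 counts over the 3 Id3- eTR libraries and 189 over the 3 Id3+ cTR libraries, and Ccl5 had 653 in Id3- eTR and 36 in Id3+ cTR. Cd8b1 had 411 in Id3- eTR and 475 in Id3+ cTR, and Cd8a 51 in Id3- eTR and 36 in Id3+ cTR. Klrd1 had 10 in Id3- eTR and 9 in Id3+ cTR and Eomes 1 in Id3- eTR and 2 in Id3+ cTR. Klrk1 had 33 in Id3- eTR, 31 of them in 1 library, and 0 in Id3+ cTR. Klrb1c had 15 in Id3- eTR, 12 of them in 1 library, and 0 in Id3+ cTR. Gzma had 10 in Id3- eTR and 4 in Id3+ cTR. Of the 7 tested, Nkg7, Ccl5 and Klrk1 were called higher and 0 lower. The call of Klrk1 was lost without the Id3- eTR library of mouse 84 or any 1 Id3+ cTR library, in limma-voom and with the mouse as a block. The 12 B cell markers summed to between 3241 and 4211 in Id3- eTR and between 2634 and 3042 in Id3+ cTR. Of the 10 tested, Cd74, with 2838 in Id3- eTR and 1568 in Id3+ cTR, and Ighm, with 5950 in Id3- eTR and 4696 in Id3+ cTR, were called higher and 0 lower. The call of Ighm was lost without the Id3- eTR library of mouse 84 or 86 or the Id3+ cTR library of mouse 86 or 87. Cd79a had 45 in Id3- eTR and 169 in Id3+ cTR, Ms4a1 2 in Id3- eTR and 57 in Id3+ cTR and Pax5 0 in Id3- eTR and 5 in Id3+ cTR. Conventional CD4 T cell markers summed to between 723 and 873 in Id3- eTR and between 1543 and 1699 in Id3+ cTR. The members went both ways. Summed over the 3 libraries of a group, Igfbp4 had 23 in Id3- eTR and 3039 in Id3+ cTR and Dapl1 8 in Id3- eTR and 336 in Id3+ cTR, while Ifng had 652 in Id3- eTR and 12 in Id3+ cTR, Il4 106 in Id3- eTR and 0 in Id3+ cTR, Il21 42 in Id3- eTR and 0 in Id3+ cTR and Il2 23 in Id3- eTR and 7 in Id3+ cTR. The 9 stromal and endothelial markers, 6 of them at 0, summed to between 180 and 218 in Id3- eTR and between 530 and 828 in Id3+ cTR. Nearly all of this was Pecam1, with 556 in Id3- eTR and 2180 in Id3+ cTR, which is also in the list of lymph node entry and egress below, while Cxcl13 had 24 in Id3- eTR and 0 in Id3+ cTR and Col1a1 8 in Id3- eTR and 0 in Id3+ cTR. The part of such cells in the differences below was not tested.

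Of the 12445 genes, 1610 were called between the populations (12.9%), 1028 higher in Id3- eTR (8.26%) and 582 lower (4.68%). A fitted difference of at least 8-fold was found for 364 of the higher and 72 of the lower genes, so that large fitted differences lay mostly on the higher side. These 2 counts include genes with few counts in 1 group, whose fitted size is uncertain. In 1597 of the 1610 the direction was the same in 3 of 3 mice. In 1010 of the higher and 579 of the lower genes no Id3- eTR library overlapped an Id3+ cTR library. These counts cover called genes only, where the call itself favours such agreement, and the share over all 12445 genes is not given. One group had no more than 3 counts in all for 198 of the higher and 35 of the lower genes. For these a fitted fold change depends on the method, so the ratio of CPM is given instead, as a lower bound with 3 counts over the whole group in place of 0, or with its 95% counting interval where there were 1 to 3 counts. Counting error is all that these bounds and intervals cover. Genes with few counts in 1 population passed the filter on low counts only through other groups, where they were higher. List counts and medians that hold such genes thus depend in part on the filter. Leaving out the Id3- eTR library of mouse 84 or the Id3+ cTR library of mouse 87 brought the lower genes to 385 and 386.

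**Figure D1:**
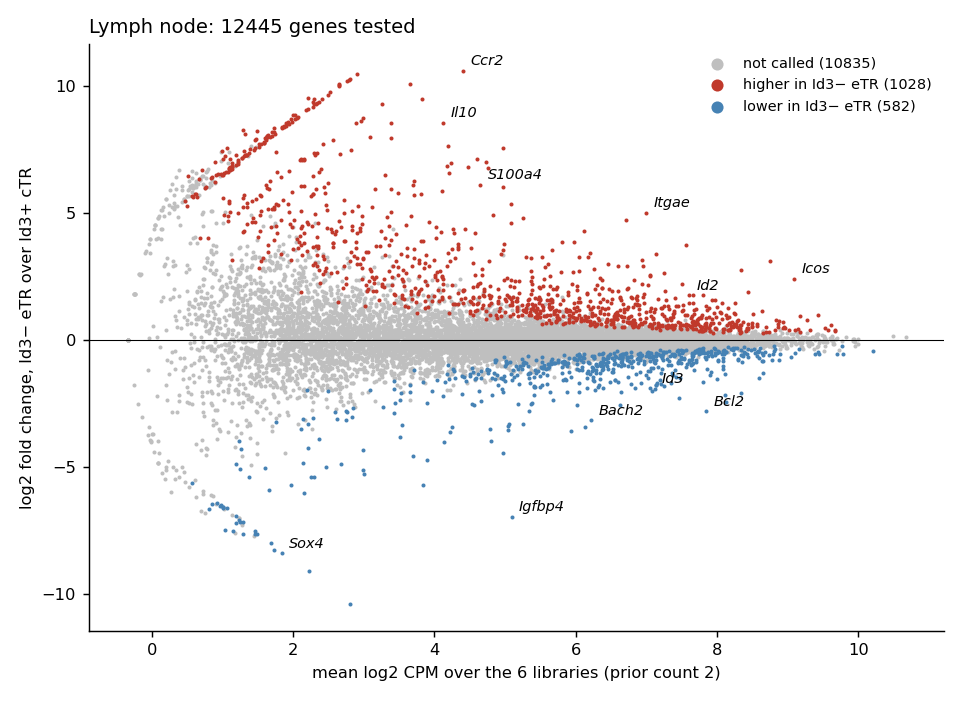
Log2 fold change of each of 12445 genes in lymph node Id3- eTR over Id3+ cTR (y axis) against its mean log2 CPM over the 6 libraries (x axis). Red points are the 1028 genes called higher and blue points the 582 called lower in Id3- eTR. The fitted change of a gene with 0 counts in 1 population depends on the prior count and is no estimate of size.

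Id3 and Id2, the main Id proteins of T cells, differed in opposite directions. Id3 stood at 61.3, 83.7 and 69.2 CPM in Id3- eTR against 282, 244 and 282 CPM in Id3+ cTR (-1.91 ± 0.16, adjusted p = 3.44e-07), as a gate on its reporter asks. Its transcript was lower but not absent in the cells sorted as GFP-negative, and in Id3+ eTR it stood at 289, 296 and 304 CPM. Id2, which acts on the same E proteins, stood at 368, 349 and 367 CPM in Id3- eTR against 104, 89.95 and 122 CPM in Id3+ cTR (1.78 ± 0.15, adjusted p = 4.43e-07). It was higher in every Id3- eTR library than in any Id3+ cTR library, and the Id3+ eTR libraries lay between them at 214, 172 and 211 CPM. Of the E proteins themselves, Tcf3 (-0.42 ± 0.38, adjusted p = 0.575) and Tcf12 (-0.23 ± 0.20, adjusted p = 0.555) gave no call, and neither did Tcf4 (0.92 ± 0.78, adjusted p = 0.538) and Id1 (0.67 ± 1.03, adjusted p = 0.774).

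E proteins bind the E-box, CANNTG, which reads the same letters on both strands, and the promoters of 5 genes are printed here to show where these letters lie. They are Id3 and Id2, Il7r, which encodes a chain of the IL-7 receptor, and the higher genes Ccr2 and Batf described below. The genes were chosen after their values were seen. Each sequence runs from 250 bases before the start that RefSeq lists on GRCm38.p6 to 50 after it, 5′ to 3′ on the gene's strand in lower case, with every CANNTG in capitals.
Id3, chr4:136143572-136143871 (+ strand): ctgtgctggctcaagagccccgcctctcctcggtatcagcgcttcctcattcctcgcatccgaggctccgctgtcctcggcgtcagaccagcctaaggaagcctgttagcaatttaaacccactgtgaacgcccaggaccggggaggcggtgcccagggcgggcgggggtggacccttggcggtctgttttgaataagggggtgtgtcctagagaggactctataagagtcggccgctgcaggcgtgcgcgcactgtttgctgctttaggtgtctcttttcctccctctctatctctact
Id2, chr12:25096043-25096342 (- strand): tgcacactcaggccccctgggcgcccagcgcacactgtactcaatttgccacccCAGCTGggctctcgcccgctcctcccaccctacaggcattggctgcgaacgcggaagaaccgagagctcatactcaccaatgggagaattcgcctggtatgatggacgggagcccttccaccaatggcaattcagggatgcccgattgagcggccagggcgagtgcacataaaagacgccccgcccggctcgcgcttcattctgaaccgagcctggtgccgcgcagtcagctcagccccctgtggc
Il7r, chr15:9529827-9530126 (- strand): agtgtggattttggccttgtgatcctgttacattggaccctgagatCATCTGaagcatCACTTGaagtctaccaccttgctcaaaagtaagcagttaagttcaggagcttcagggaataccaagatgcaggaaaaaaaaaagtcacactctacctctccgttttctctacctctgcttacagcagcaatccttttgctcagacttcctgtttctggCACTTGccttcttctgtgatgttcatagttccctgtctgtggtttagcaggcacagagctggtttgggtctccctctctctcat
Ccr2, chr9:124101933-124102232 (+ strand): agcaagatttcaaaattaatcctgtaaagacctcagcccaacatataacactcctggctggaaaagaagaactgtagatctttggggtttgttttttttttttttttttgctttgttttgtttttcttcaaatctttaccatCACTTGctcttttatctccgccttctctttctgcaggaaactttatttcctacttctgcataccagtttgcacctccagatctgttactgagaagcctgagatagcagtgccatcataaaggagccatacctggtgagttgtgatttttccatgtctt
Batf, chr12:85686470-85686769 (+ strand): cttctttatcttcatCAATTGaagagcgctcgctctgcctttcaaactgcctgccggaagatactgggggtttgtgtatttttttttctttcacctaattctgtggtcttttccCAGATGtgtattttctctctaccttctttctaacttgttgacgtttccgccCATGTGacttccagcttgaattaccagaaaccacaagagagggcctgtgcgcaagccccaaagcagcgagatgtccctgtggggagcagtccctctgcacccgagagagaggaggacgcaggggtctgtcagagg
The Id3 window holds 0 such letters, Id2 and Ccr2 hold 1 each, and Il7r and Batf hold 3 each. Of the 27025 genes in the RefSeq promoter table, 72.1% have at least 1, so a match is common and says nothing of binding. Only 73.1% of the higher and 75.4% of the lower genes could be matched to the table by symbol, so a comparison of promoters between the gene groups is void and is not reported.

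**Figure D2:**
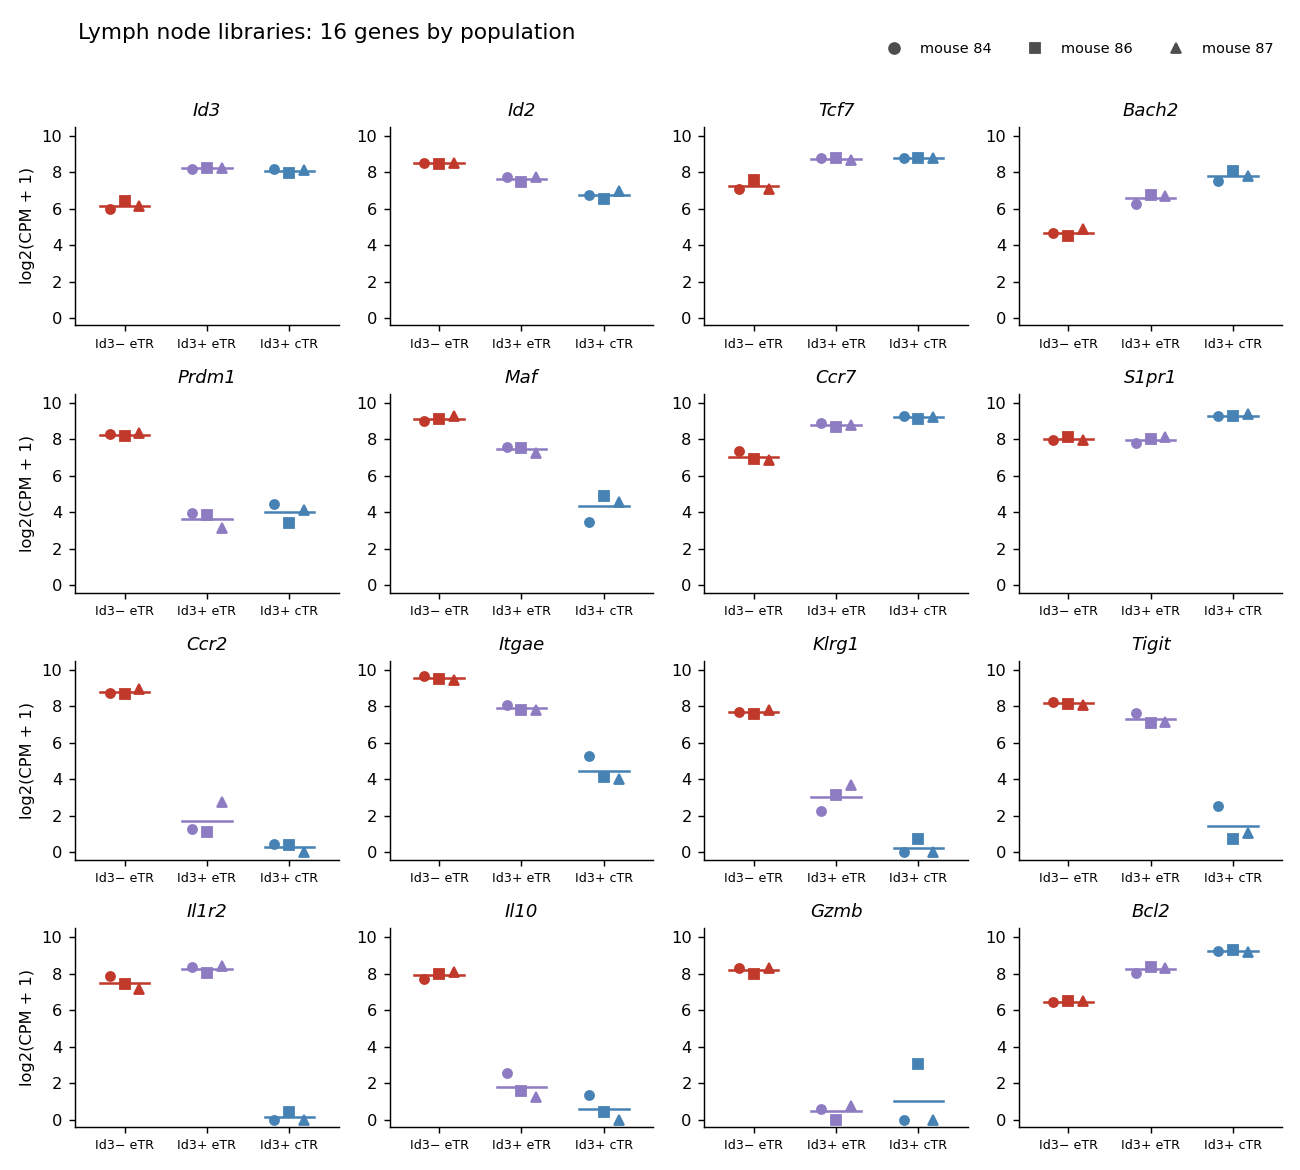
Log2(CPM + 1) of 16 genes in the 9 lymph node libraries, by population (x axis), with 1 symbol per mouse and a line at the mean of 3. Id3, Tcf7, Bach2, Ccr7, S1pr1 and Bcl2 were lower in Id3- eTR than in Id3+ cTR and the other 10 genes were higher, while the place of Id3+ eTR differed from gene to gene.

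Of 16 transcription factors of resting T cells tested, 8 were lower in Id3- eTR and 0 higher, with a median log2 difference of -0.62 against 0.00 over all genes tested. Bach2, a repressor that keeps T cells from effector programmes, stood at 24, 21.6 and 28.9 CPM in Id3- eTR against 181, 266 and 219 CPM in Id3+ cTR (-3.16 ± 0.18, adjusted p = 6.79e-09). Satb1, a chromatin organizer, stood at 134, 129.7 and 97.3 CPM in Id3- eTR against 611, 657 and 685 CPM in Id3+ cTR (-2.43 ± 0.13, adjusted p = 1.9e-09). The groups overlapped for neither gene, and Id3+ eTR lay between the other populations, at 75, 106 and 101 CPM for Bach2 and 150.5, 157 and 195 CPM for Satb1. Tcf7, which encodes TCF-1, a factor of naive and memory T cells, stood at 133, 190.0 and 132 CPM in Id3- eTR against 436, 431 and 432 CPM in Id3+ cTR (-1.51 ± 0.15, adjusted p = 2.19e-06). In Id3+ eTR it had 438, 431 and 412 CPM, overlapping Id3+ cTR and above every Id3- eTR library. Its partner Lef1 (-1.33 ± 0.09, adjusted p = 3.75e-08) and Foxp1 (-0.77 ± 0.09, adjusted p = 2.6e-05), a factor of T cell quiescence, were lower as well. Sox4, a factor of the SOX family, had 0 counts in Id3- eTR and 142 in Id3+ cTR, at least 45.1-fold lower. Bcl11b (-0.33 ± 0.17, adjusted p = 0.257) and Foxo1 (-0.31 ± 0.12, adjusted p = 0.103) gave no call.

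Effector transcription factors moved the other way, with 15 of 20 tested higher, 0 lower and a median log2 difference of 3.20, or 3.18 with genes of few counts at their bound or ratio. Prdm1, which encodes Blimp-1, a regulator of IL-10 and of terminal differentiation, stood at 310.1, 288 and 320.5 CPM in Id3- eTR against 20.8, 9.59 and 16.7 CPM in Id3+ cTR (4.29 ± 0.36, adjusted p = 4.81e-07). Id3+ eTR stood at 14.3, 13.5 and 7.96 CPM, within or below the Id3+ cTR range, so the high level was seen in Id3- eTR and in no Id3+ library of lymph node. Maf, a factor of IL-10 expression, stood at 503, 542 and 625 CPM in Id3- eTR against 10.2, 29.1 and 22.4 CPM in Id3+ cTR (4.74 ± 0.26, adjusted p = 2.79e-09), and at 193, 179.7 and 153 CPM in Id3+ eTR, between the other populations.

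Rora, a nuclear receptor of tissue T cells, was higher. It had 409.9 to 496 CPM in Id3- eTR and 32 to 49.9 CPM in Id3+ cTR (3.40 ± 0.22, adjusted p = 2.09e-08). Batf, an AP-1 factor needed for effector regulatory T cells, was higher too, with 227 to 254 CPM in Id3- eTR and 103 to 128 CPM in Id3+ cTR (1.06 ± 0.11, adjusted p = 2.81e-06). Bhlhe40, a basic helix-loop-helix factor, was higher in Id3- eTR than in Id3+ cTR (2.23 ± 0.26, adjusted p = 1.33e-05), with 125, 128 and 147 CPM in Id3- eTR, 257, 219 and 232 CPM in Id3+ eTR and 40.5, 24.1 and 21.3 CPM in Id3+ cTR, so that Id3+ eTR was above both. Arnt2, a partner of the aryl hydrocarbon receptor, had 412 counts in Id3- eTR and 0 in Id3+ cTR, at least 144-fold higher, and the receptor gene Ahr itself was higher by 3.27 ± 0.40 (adjusted p = 2.39e-05). Gata3 (0.80 ± 0.17, adjusted p = 0.00378), Ikzf3 (1.45 ± 0.19, adjusted p = 4.64e-05), Hif1a (1.32 ± 0.16, adjusted p = 1.92e-05) and Nfil3 (2.99 ± 0.33, adjusted p = 6.89e-06) were among the other higher members. Irf4 (1.71 ± 0.58, adjusted p = 0.064) was not called, with 144, 109 and 66.7 CPM in Id3- eTR and 23.1, 21.2 and 53.3 CPM in Id3+ cTR.

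**Figure D3:**
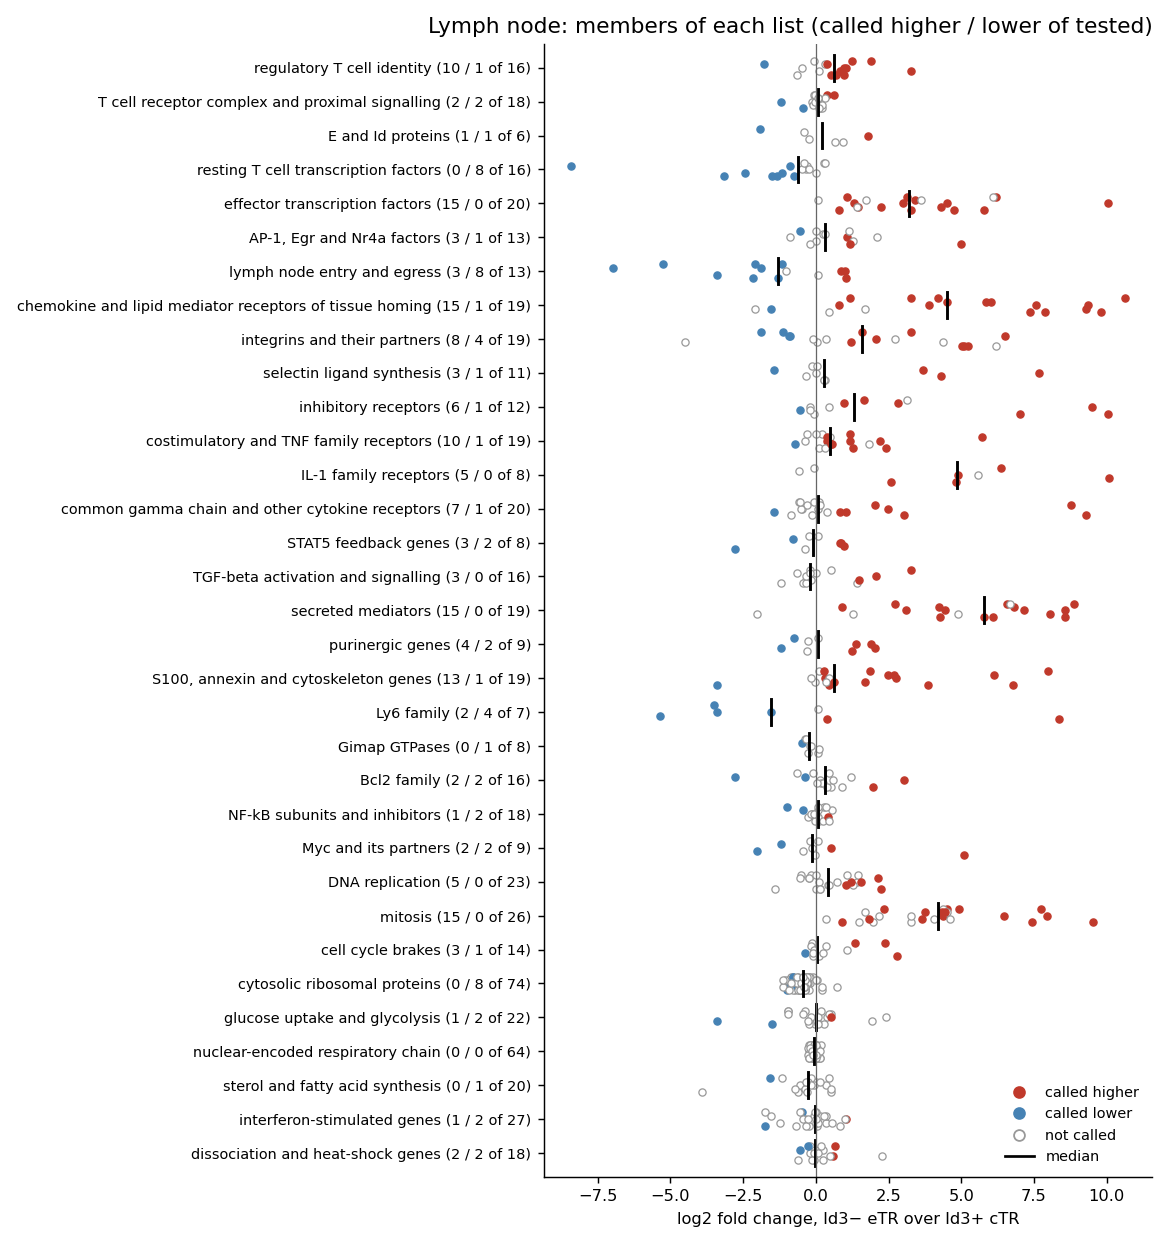
Log2 fold change of lymph node Id3- eTR over Id3+ cTR (x axis) for every tested member of 33 gene lists (rows), with the numbers called higher and lower of those tested in parentheses. Filled red and blue points are called genes, open points are not called, and the black line is the median of the list. Points of genes with few counts in 1 population are fitted values that give no estimate of size, and the medians of lists that hold them move with them.

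Genes for entry into and exit from lymph nodes were mostly lower in Id3- eTR. Of 13 tested, 8 were lower and 3 higher (median log2 difference -1.29). Ccr7, the receptor that guides T cells into lymph nodes, stood at 165, 119 and 115 CPM in Id3- eTR against 626, 548 and 589.7 CPM in Id3+ cTR (-2.15 ± 0.16, adjusted p = 1.21e-07). S1pr1, the receptor for exit, stood at 247, 273 and 252 CPM in Id3- eTR against 616, 611 and 663 CPM in Id3+ cTR (-1.29 ± 0.13, adjusted p = 2.4e-06), and Klf2, a factor known to drive S1pr1, at 133, 129 and 145 CPM in Id3- eTR against 273, 312 and 337 CPM in Id3+ cTR (-1.18 ± 0.15, adjusted p = 4.6e-05). The groups did not overlap for these 3 genes. They differed in Id3+ eTR, where Ccr7 was at 478, 412 and 443 CPM, above every Id3- eTR library, while S1pr1 was at 224, 256 and 282 CPM and Klf2 at 120.4, 155 and 157 CPM, overlapping Id3- eTR. Igfbp4 fell to 2.36, 1.10 and 4.99 CPM in Id3- eTR, against 380.1, 349.9 and 347 CPM in Id3+ cTR (-6.96 ± 0.51, adjusted p = 1.04e-07). Dapl1, a gene of naive T cells, had 0 to 1.57 CPM in Id3- eTR and 35.1 to 44.7 CPM in Id3+ cTR. The higher members included Itgal (0.86 ± 0.20, adjusted p = 0.00704), one chain of the integrin LFA-1, and Il7r (1.02 ± 0.19, adjusted p = 0.00156), at 546, 427 and 601 CPM in Id3- eTR and 223, 232 and 321 CPM in Id3+ cTR.

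Receptors for chemokines and lipid mediators that guide cells into tissues were higher in Id3- eTR in 15 of 19 members tested and lower in 1, with a median log2 difference of 4.49. Without the Id3- eTR library of mouse 86 the lower count was 2. For several of them Id3+ cTR was almost empty. Ccr2, a receptor for chemokines of inflamed tissue, stood at 431, 415 and 499 CPM in Id3- eTR against 0.379, 0.331 and 0 CPM in Id3+ cTR, where it had 2 counts in all, a ratio of 1905-fold, 95% interval 527 to 15735. Id3+ eTR had 1.43, 1.16 and 5.89 CPM, so its level was far below Id3- eTR too. Ccr3, a receptor for eotaxins, had 140.3, 74.2 and 102 CPM in Id3- eTR and 1 count in Id3+ cTR (888-fold, 95% interval 159 to 35132), and none in Id3+ eTR. Ccr10, a receptor for skin and mucosal chemokines, had 260 counts in Id3- eTR against 0 in Id3+ cTR, at least 90.9-fold higher. Cxcr6 stood at 411, 431 and 462 CPM in Id3- eTR against 6.06, 0.661 and 0.355 CPM in Id3+ cTR (7.56 ± 0.77, adjusted p = 3.52e-06).

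For other receptors Id3+ eTR stood well above Id3+ cTR too. Cxcr3, a receptor of T helper 1-type inflammation, stood at 322, 244 and 296 CPM in Id3- eTR against 9.08, 4.30 and 0 CPM in Id3+ cTR (6.02 ± 0.40, adjusted p = 3.65e-08) and at 138, 110.1 and 135 CPM in Id3+ eTR. Ccr6, a receptor for CCL20, stood at 287, 264 and 185 CPM in Id3- eTR against 24.6, 10.3 and 15.3 CPM in Id3+ cTR (3.88 ± 0.32, adjusted p = 3.44e-07), and Id3+ eTR overlapped Id3- eTR at 225, 193 and 177 CPM. Ccr8, a receptor of skin and tumour regulatory T cells, was at 234, 221 and 216 CPM in Id3- eTR and 21.6, 18.2 and 29.1 CPM in Id3+ cTR (3.28 ± 0.41, adjusted p = 2.91e-05), with 187, 173 and 174 CPM in Id3+ eTR. Gpr15, a receptor for homing to the colon, was likewise higher in Id3- eTR (4.21 ± 0.61, adjusted p = 0.000128), and so was Ccr4 (5.86 ± 0.54, adjusted p = 1.21e-06). The lower member was Gpr34, a receptor for lysophosphatidylserine, with 49.1 to 63.5 CPM in Id3- eTR and 154 to 168 CPM in Id3+ cTR (-1.56 ± 0.25, adjusted p = 0.000384). Cxcr5, a receptor of follicular T cells, overlapped between the groups at 24.4, 95.3 and 37.4 CPM in Id3- eTR and 61.7, 38.7 and 13.8 CPM in Id3+ cTR (0.47 ± 0.48, adjusted p = 0.633).

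Among 19 integrins and their partners, 8 were higher and 4 lower, with a median log2 difference of 1.58, or 1.48 with genes of few counts at their bound or ratio. Itgae, which encodes CD103, a receptor for epithelial E-cadherin, stood at 799, 733 and 693 CPM in Id3- eTR against 37.5, 16.5 and 15.3 CPM in Id3+ cTR (5.01 ± 0.49, adjusted p = 2.4e-06), with Id3+ eTR between at 269.9, 222 and 219 CPM. Itgb8 and Itgav, which pair into an integrin that activates latent TGF-beta, were both higher. Itgb8 had 186 to 213 CPM in Id3- eTR and 16.7 to 23.5 CPM in Id3+ cTR (3.27 ± 0.26, adjusted p = 2.33e-07), and Itgav had 202 to 251 CPM in Id3- eTR and 41 to 73.1 CPM in Id3+ cTR (2.07 ± 0.26, adjusted p = 3.59e-05). Itgb1, the common beta 1 chain, was higher as well (1.58 ± 0.12, adjusted p = 2.26e-07). Lower members were Itga4, which pairs with the beta 1 and beta 7 chains, at 164, 217 and 169 CPM in Id3- eTR against 395, 399 and 412 CPM in Id3+ cTR (-1.13 ± 0.12, adjusted p = 4.85e-06), Itga6 (-0.89 ± 0.18, adjusted p = 0.00318), Itgb3 (-0.93 ± 0.23, adjusted p = 0.0131) and the tetraspanin Cd9 (-1.90 ± 0.17, adjusted p = 6.53e-07). The call of Itgb3 was lost without the Id3+ cTR library of mouse 84 or the Id3- eTR library of mouse 87. Itgb7 (-0.10 ± 0.15, adjusted p = 0.768) and Itgb2 (0.05 ± 0.14, adjusted p = 0.875) gave no call. Of 11 genes that build selectin ligands, 3 were higher and 1 lower, the lower count being 0 without the Id3- eTR library of mouse 86 or the Id3+ cTR library of mouse 87. Gcnt1, the branching enzyme of these ligands, stood at 231, 229 and 215 CPM in Id3- eTR against 0.379, 0 and 2.84 CPM in Id3+ cTR (7.66 ± 0.70, adjusted p = 1.04e-06).

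Inhibitory receptors included 6 higher and 1 lower of 12 tested (median log2 difference 1.31). Tigit, a receptor that competes with the activating CD226, stood at 306, 284 and 268 CPM in Id3- eTR against 4.92, 0.661 and 1.06 CPM in Id3+ cTR (7.03 ± 0.34, adjusted p = 5.6e-10), and at 195, 138 and 139.9 CPM in Id3+ eTR. Klrg1, a receptor of terminally differentiated lymphocytes, stood at 203, 193 and 224 CPM in Id3- eTR and had 2 counts in Id3+ cTR (878-fold, 95% interval 243 to 7259.7), with 3.82, 7.73 and 12.1 CPM in Id3+ eTR. Havcr2, which encodes TIM-3, had 423 counts in Id3- eTR and 0 in Id3+ cTR, at least 148-fold higher, and was at 0 in Id3+ eTR too. Pdcd1, which encodes PD-1, stood at 227, 214 and 178 CPM in Id3- eTR against 43.5, 17.9 and 26.6 CPM in Id3+ cTR (2.82 ± 0.32, adjusted p = 1.06e-05), and Id3+ eTR overlapped Id3- eTR at 227, 228 and 187 CPM. Ctla4, which removes costimulatory ligands from antigen-presenting cells, had 778 to 828 CPM in Id3- eTR and 408 to 421 CPM in Id3+ cTR (0.96 ± 0.10, adjusted p = 6.63e-06). Cd96 was the lower member (-0.54 ± 0.13, adjusted p = 0.00984), and Btla (-0.07 ± 0.11, adjusted p = 0.796) was not called.

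Of 19 costimulatory and TNF family genes, 10 were higher and 1 lower, with a median log2 difference of 0.48, but without the Id3- eTR library of mouse 84 the higher count was 6. Icos, a costimulatory receptor that supports effector regulatory T cells, stood at 1332, 1278 and 1183 CPM in Id3- eTR against 231, 256 and 221 CPM in Id3+ cTR (2.42 ± 0.11, adjusted p = 4.09e-10), with 653, 633 and 569 CPM in Id3+ eTR between them. Tnfrsf1b, which encodes TNF receptor 2, had 375 to 400.4 CPM in Id3- eTR and 69.3 to 106 CPM in Id3+ cTR (2.19 ± 0.40, adjusted p = 0.00114). Tnfrsf9, which encodes 4-1BB, had 429 to 469.7 CPM in Id3- eTR and 163 to 223 CPM in Id3+ cTR (1.26 ± 0.18, adjusted p = 0.000147), and Id3+ eTR overlapped Id3- eTR at 364 to 478 CPM. Tnfsf8, which encodes the ligand of CD30, was lower (-0.73 ± 0.15, adjusted p = 0.00378), and Cd27 (0.10 ± 0.09, adjusted p = 0.562) was not called.

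Receptors of the IL-1 family were higher in 5 of 8 tested (4 to 6 over the alternative fits) and lower in 0, with a median log2 difference of 4.85, or 3.13 with genes of few counts at their bound or ratio. Il1rl1, which encodes ST2, the receptor of the tissue alarmin IL-33, stood at 213, 155 and 226 CPM in Id3- eTR against 10.2, 3.97 and 7.10 CPM in Id3+ cTR (4.80 ± 0.36, adjusted p = 1.67e-07), and at 27.7, 23.6 and 11.8 CPM in Id3+ eTR, well under Id3- eTR. Il1r2, a decoy receptor for IL-1, ran otherwise. It stood at 234, 170.2 and 142 CPM in Id3- eTR and had 1 count in Id3+ cTR (1530.3-fold, 95% interval 274 to 60487), while Id3+ eTR had 331, 263 and 340.3 CPM, above every Id3- eTR library. Il18r1 (2.59 ± 0.25, adjusted p = 2.33e-06) and Il18rap (4.89 ± 0.80, adjusted p = 0.00045), the chains of the IL-18 receptor, were higher. Among 20 other cytokine receptors, 7 were higher (5 to 8 over the alternative fits) and 1 lower, with a median of 0.08. Il23r had 251 counts in Id3- eTR against 0 in Id3+ cTR, at least 87.8-fold higher, and Il9r 582 counts in Id3- eTR against 1 in Id3+ cTR (610.5-fold, 95% interval 109 to 24153). Il10ra was higher (2.03 ± 0.27, adjusted p = 5.03e-05) and Ifngr2, the signalling chain of the interferon gamma receptor, lower (-1.45 ± 0.30, adjusted p = 0.00365). The common gamma chain Il2rg (0.13 ± 0.11, adjusted p = 0.525) and Il2rb (0.37 ± 0.19, adjusted p = 0.247) were not called.

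Secreted mediators showed the highest list median, 5.79 on the log2 scale (4.90 with genes of few counts at their bound or ratio). Of 28 listed, 19 passed the filter on low counts, and 15 of these were higher and 0 lower. Members almost absent from Id3+ cTR passed only through groups where they were higher, so this count and median depend in part on the filter. Il10, the anti-inflammatory cytokine, stood at 208, 249 and 269 CPM in Id3- eTR against 1.51, 0.331 and 0 CPM in Id3+ cTR (8.56 ± 0.86, adjusted p = 2.8e-06). Gzmb, which encodes granzyme B, stood at 312, 251 and 310.1 CPM in Id3- eTR against 0, 7.28 and 0 CPM in Id3+ cTR (6.81 ± 0.85, adjusted p = 3.23e-05). Fgl2, a suppressive fibrinogen-like protein, stood at 195, 171 and 216 CPM in Id3- eTR against 0, 5.29 and 0.355 CPM in Id3+ cTR (6.58 ± 0.72, adjusted p = 7.04e-06). These 3 genes were also low in Id3+ eTR, at 1.38 to 4.78 CPM for Il10, 0 to 0.692 CPM for Gzmb and 1.16 to 8.12 CPM for Fgl2, overlapping Id3+ cTR each time. The summed markers of CD8 T and NK cells and of myeloid cells were higher in the same Id3- eTR libraries, as given above, and their part in these results was not tested.

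Other mediators were above Id3+ cTR in Id3+ eTR as well. Ebi3, a subunit of IL-27 and IL-35, had 67 to 92.1 CPM in Id3- eTR and 4.96 to 16.3 CPM in Id3+ cTR (3.11 ± 0.43, adjusted p = 8.47e-05), and 61.2 to 89.7 CPM in Id3+ eTR. Areg, which encodes the repair factor amphiregulin, had 64.2 to 81.7 CPM in Id3- eTR and 1.77 to 6.06 CPM in Id3+ cTR (4.45 ± 0.51, adjusted p = 1.15e-05), with 24.2 to 28.2 CPM in Id3+ eTR. Ifng, which encodes interferon gamma, stood at 64.1, 73.4 and 103 CPM in Id3- eTR against 0.379, 3.64 and 0 CPM in Id3+ cTR (5.79 ± 0.75, adjusted p = 4.3e-05), and Id3+ eTR overlapped Id3- eTR at 95.6, 51.4 and 55.7 CPM. Penk, the precursor of enkephalin peptides, varied more between mice, at 146, 238 and 246 CPM in Id3- eTR and 5.68, 69.1 and 20.2 CPM in Id3+ cTR (2.71 ± 0.54, adjusted p = 0.00262). Ccl20, the ligand of CCR6, had 185 counts in Id3- eTR against 0 in Id3+ cTR, at least 64.7-fold higher. Lgals1 was higher by 0.90 ± 0.14 (adjusted p = 0.000271), with 217 to 239 CPM in Id3- eTR and 115 to 132 CPM in Id3+ cTR.

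The enzymes and receptors of extracellular ATP and adenosine gave 4 higher and 2 lower of 9 tested, and the lower count was 1 without any of the 6 libraries except the Id3- eTR library of mouse 87. The higher count was 3 or 4 over the alternative fits. Nt5e, which encodes CD73, the enzyme that makes adenosine, stood at 651, 734 and 637 CPM in Id3- eTR against 162, 205 and 171 CPM in Id3+ cTR (1.91 ± 0.18, adjusted p = 1.16e-06). The adenosine receptor Adora2a (1.39 ± 0.29, adjusted p = 0.0032) and Cd38 (2.02 ± 0.38, adjusted p = 0.00166) were higher too. P2rx7, an ATP-gated channel, was lower, at 38.9, 69 and 41.7 CPM in Id3- eTR against 116, 128 and 103 CPM in Id3+ cTR (-1.21 ± 0.21, adjusted p = 0.000661), and Id3+ eTR overlapped Id3+ cTR at 125, 153 and 107 CPM. Of 16 genes of TGF-beta activation and signalling, 3 were higher and 0 lower, and their median was -0.21. Without the Id3- eTR library of mouse 86, 1 was lower. The higher ones were Itgb8 and Itgav, described above, and Tgfbr1, a receptor chain (1.47 ± 0.24, adjusted p = 0.000372).

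S100, annexin and cytoskeleton genes, many of them linked to migration and cell shape, were higher in 13 of 19 tested and lower in 1, with a median log2 difference of 0.63. The higher count ran from 10 to 14 over the alternative fits. S100a4, a calcium-binding protein of motile cells, stood at 194, 183 and 179 CPM in Id3- eTR against 2.65, 2.31 and 2.84 CPM in Id3+ cTR (6.13 ± 0.29, adjusted p = 5.38e-10), with little spread in either group, and Id3+ eTR lay between at 37.3, 52.9 and 26.7 CPM. S100a6 differed alike, at 215, 203 and 206 CPM in Id3- eTR against 11.7, 13.9 and 17.4 CPM in Id3+ cTR (3.85 ± 0.24, adjusted p = 1.25e-08). Ahnak, a giant scaffold protein, stood at 844, 885 and 790.3 CPM in Id3- eTR against 132, 121 and 118 CPM in Id3+ cTR (2.76 ± 0.12, adjusted p = 3.85e-10). Myo1f, an unconventional myosin of leukocytes, had 247 to 303 CPM in Id3- eTR and 0.355 to 5.68 CPM in Id3+ cTR (6.78 ± 0.67, adjusted p = 2.36e-06). Lmna (2.68 ± 0.41, adjusted p = 0.000203) and Vim (0.63 ± 0.10, adjusted p = 0.000445), which encode a nuclear lamina and an intermediate filament protein, were higher. Actn1 was the lower member, at 3.14, 6.58 and 6.77 CPM in Id3- eTR against 51.1, 65.1 and 61.4 CPM in Id3+ cTR (-3.41 ± 0.51, adjusted p = 0.00017).

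The genes that define regulatory T cells were 10 higher and 1 lower of 16, with a median log2 difference of 0.61, and Foxp3 and Il2ra were among the 5 not called. Over the alternative fits the higher count ran from 7 to 11 and the lower count from 1 to 2. Differences were modest for Ikzf2, which encodes Helios (0.98 ± 0.14, adjusted p = 9.97e-05), for Nrp1 (1.04 ± 0.09, adjusted p = 6.6e-07) and for the actin-capping protein Capg (0.71 ± 0.11, adjusted p = 0.000281). Gpr83, a receptor known from regulatory T cells, went the other way, at 80.6, 76.4 and 87.7 CPM in Id3- eTR against 278, 281 and 289.7 CPM in Id3+ cTR (-1.79 ± 0.18, adjusted p = 2.4e-06), and Id3+ eTR lay between at 176, 176 and 249 CPM. Of 18 genes of the T cell receptor and its proximal signalling, 14 were not called, 2 were higher and 2 lower, with a median of 0.08. Over all genes tested, 8.26% were called higher and 4.68% lower. Leaving out any of the 6 libraries lost at least 1 of these calls. The largest difference among them was in Themis, an adaptor of T cell receptor signalling, at 91.2, 66.5 and 107 CPM in Id3- eTR against 173, 222 and 212 CPM in Id3+ cTR (-1.20 ± 0.21, adjusted p = 0.000749). Cd3e stood at 479, 453 and 460.2 CPM in Id3- eTR and 332, 381 and 416 CPM in Id3+ cTR (0.30 ± 0.12, adjusted p = 0.125).

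Among genes of cell survival, Bcl2 was lower in Id3- eTR. Bcl2, the anti-apoptotic protein that gives the family its name, stood at 86.1, 88 and 88 CPM in Id3- eTR against 611, 618 and 583 CPM in Id3+ cTR (-2.79 ± 0.13, adjusted p = 4.6e-10), with Id3+ eTR between at 263, 325 and 319.9 CPM and no overlap among the 3 populations. Pmaip1, which encodes the pro-apoptotic NOXA, stood at 112, 137 and 132 CPM in Id3- eTR against 28, 35.7 and 33 CPM in Id3+ cTR (1.97 ± 0.26, adjusted p = 5.71e-05). In all, 2 of the 16 family members tested were higher and 2 lower, or 1 and 1 without any of the 6 libraries except the Id3- eTR library of mouse 86, and Bcl2l1 (0.59 ± 0.42, adjusted p = 0.436) and Bcl2l11 (-0.66 ± 0.26, adjusted p = 0.123), which encode Bcl-xL and BIM, were not called. Myc, the factor of growth and ribosome production, stood at 68, 58.8 and 73.8 CPM in Id3- eTR against 246, 278 and 289.7 CPM in Id3+ cTR (-2.02 ± 0.16, adjusted p = 2.32e-07), and at 153, 189 and 149.6 CPM in Id3+ eTR. Of 74 cytosolic ribosomal protein genes, 8 were lower and 0 higher (median log2 difference -0.44). The lower count was 0 without the Id3- eTR library of mouse 84 or the Id3+ cTR library of mouse 84 or 87, 1 and 2 without the Id3- eTR libraries of mice 86 and 87, and 5 without the Id3+ cTR library of mouse 86. All 74 together summed to only 3088 to 3136 CPM in Id3- eTR and 3997 to 4425 CPM in Id3+ cTR. Whether their reads were counted in full was not tested.

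Mitosis genes were higher in 15 of 26 tested and lower in 0, with a median log2 difference of 4.21, yet they varied between mice and the count of calls did with them. It was 6 without the Id3- eTR library of mouse 84 and 7 without that of mouse 87, and 9, 5 and 4 without the Id3+ cTR libraries of mice 84, 86 and 87. Mki67, which encodes the proliferation marker Ki-67, stood at 201, 111 and 151 CPM in Id3- eTR against 5.68, 7.28 and 2.13 CPM in Id3+ cTR (4.92 ± 0.51, adjusted p = 4.46e-06), and Id3+ eTR at 73.1, 22.8 and 30.1 CPM. Top2a, a topoisomerase of dividing cells, stood at 128, 30.7 and 98.4 CPM in Id3- eTR, lowest in mouse 86, against 11, 5.29 and 4.26 CPM in Id3+ cTR (3.64 ± 0.70, adjusted p = 0.00182). Neither call was lost when 1 library was left out. Of 23 DNA replication genes 5 were higher and 0 lower (median 0.43), and this count was 3 without the Id3- eTR library of mouse 84 and 2 without the Id3+ cTR library of mouse 86 or 87. Mcm6 (1.05 ± 0.18, adjusted p = 0.000637), part of the replicative helicase, was one of them. The cell cycle inhibitor Cdkn2c was higher as well, at 74.7, 45.3 and 84.1 CPM in Id3- eTR against 13.2, 4.63 and 11.7 CPM in Id3+ cTR (2.79 ± 0.54, adjusted p = 0.00182), and so was Rbl2 (1.36 ± 0.12, adjusted p = 9.88e-07), a member of the retinoblastoma family.

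Outside these lists, the genes named are the 10 highest and 10 lowest called ones by log2 difference, among genes whose mean log2 CPM reached 3 and whose direction was the same in 3 of 3 mice. The higher ones were Ankrd6, Cpd, Cysltr2, Gpm6b, Matn2, Mmp9, Nav2, Nebl, Sccpdh and Ttc39c, with log2 differences from 5.07 for Cysltr2, a receptor for cysteinyl leukotrienes, upward. Nav2, a neuron navigator protein, stood at 192, 172 and 153 CPM in Id3- eTR against 3.41, 0.331 and 0.710 CPM in Id3+ cTR (6.87 ± 0.61, adjusted p = 7.87e-07). Gpm6b, a membrane glycoprotein of the nervous system, stood at 228, 169 and 229 CPM in Id3- eTR against 7.19, 2.98 and 4.97 CPM in Id3+ cTR (5.37 ± 0.52, adjusted p = 2.02e-06). Mmp9, a gelatinase, stood at 86.1, 87.7 and 58.5 CPM in Id3- eTR against 3.79, 0 and 0 CPM in Id3+ cTR (5.95 ± 1.07, adjusted p = 0.00103) and at 0, 1.16 and 6.23 CPM in Id3+ eTR. The Id3+ eTR level of Gpm6b, 194, 143 and 100.1 CPM, overlapped Id3- eTR by contrast.

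The lower ones were Arhgap20, Atp1b1, Cnn3, Gata1, Gsta4, Lad1, Mob3b, Ms4a4c, Myo6 and Treml2. Myo6, a myosin that moves towards the minus end of actin filaments, stood at 9.43, 7.67 and 2.85 CPM in Id3- eTR against 151, 141 and 143 CPM in Id3+ cTR (-4.45 ± 0.43, adjusted p = 1.83e-06). Gata1, known as a factor of red cell and platelet precursors, stood at 5.90, 5.85 and 8.20 CPM in Id3- eTR against 125, 88.3 and 106 CPM in Id3+ cTR (-3.99 ± 0.47, adjusted p = 1.93e-05). The 9 markers of red cells and platelets, 4 of them at 0, summed to between 12 and 32 counts per library in Id3- eTR and between 4 and 22 in Id3+ cTR. Ms4a4c, a membrane protein of the MS4A family, stood at 18.9, 9.50 and 25.7 CPM in Id3- eTR against 214, 189.8 and 239 CPM in Id3+ cTR (-3.57 ± 0.33, adjusted p = 1.05e-06). For Arhgap20, a GTPase-activating protein, Id3- eTR had 9.04, 4.38 and 0.713 CPM, while Id3+ eTR at 53, 53.7 and 71.7 CPM overlapped Id3+ cTR at 48.5, 99.5 and 76.7 CPM. For Cnn3, an actin-binding calponin, Id3- eTR at 5.11, 4.02 and 0 CPM and Id3+ eTR at 2.39, 6.96 and 20.1 CPM overlapped, below Id3+ cTR at 100.3, 66.5 and 71.7 CPM.

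The same comparison was made in spleen from the same mice, and an interaction term tested for each gene whether the difference in lymph node differed from that in spleen. It called 3 of 12445 genes (0.0241%), 0 with a higher and 3 with a lower difference in lymph node, while 856 had an unadjusted p under 0.05. The count depended on the tool, with 47 in DESeq2 and 1 in limma-voom. It was 5 without the spleen Id3- eTR library of mouse 86, 2 without the lymph node Id3- eTR library of mouse 86 or 87 or the lymph node Id3+ cTR library of mouse 86, and 1 without any other of the 12 libraries. Few calls do not show that the tissues are alike.

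Itga4 was called under every alternative. It stood at 164, 217 and 169 CPM in Id3- eTR against 395, 399 and 412 CPM in Id3+ cTR of lymph node, and at 729, 829.6 and 732 CPM in Id3- eTR against 536, 486 and 458 CPM in Id3+ cTR of spleen. It was thus lower in Id3- eTR in lymph node and higher in Id3- eTR in spleen (0.63 ± 0.12), with no overlap in either tissue, and the differences differed by -1.76 ± 0.17 (adjusted p = 0.000109). P2rx7 stood in spleen at 238, 183 and 178 CPM in Id3- eTR against 127, 152 and 110.4 CPM in Id3+ cTR, and its interaction was -1.83 ± 0.29 (adjusted p = 0.038). Cdca7l, a partner of Myc, stood in lymph node at 59.3, 50.05 and 40.6 CPM in Id3- eTR against 87.1, 60.2 and 78.8 CPM in Id3+ cTR, where it was not called (-0.59 ± 0.19, adjusted p = 0.0504). With the mouse as a block it was called there (adjusted p = 0.0295), and so it was in DESeq2 (0.0404) and without the lymph node Id3- eTR library of mouse 84 (0.0436) or Id3+ cTR library of mouse 86 (0.0302). In spleen it stood at 77.7, 60.7 and 78.9 CPM in Id3- eTR against 37.7, 32.4 and 29 CPM in Id3+ cTR, and the interaction was -1.73 ± 0.28 (adjusted p = 0.038). The calls of P2rx7 and Cdca7l did not hold in limma-voom (adjusted p = 0.0709 for P2rx7 and 0.169 for Cdca7l) or in most fits without 1 library. That of P2rx7 held without the spleen or the lymph node Id3- eTR library of mouse 86, and that of Cdca7l without the spleen Id3- eTR or the lymph node Id3+ cTR library of mouse 86, while each was lost without any other of the 12.

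**Figure D4:**
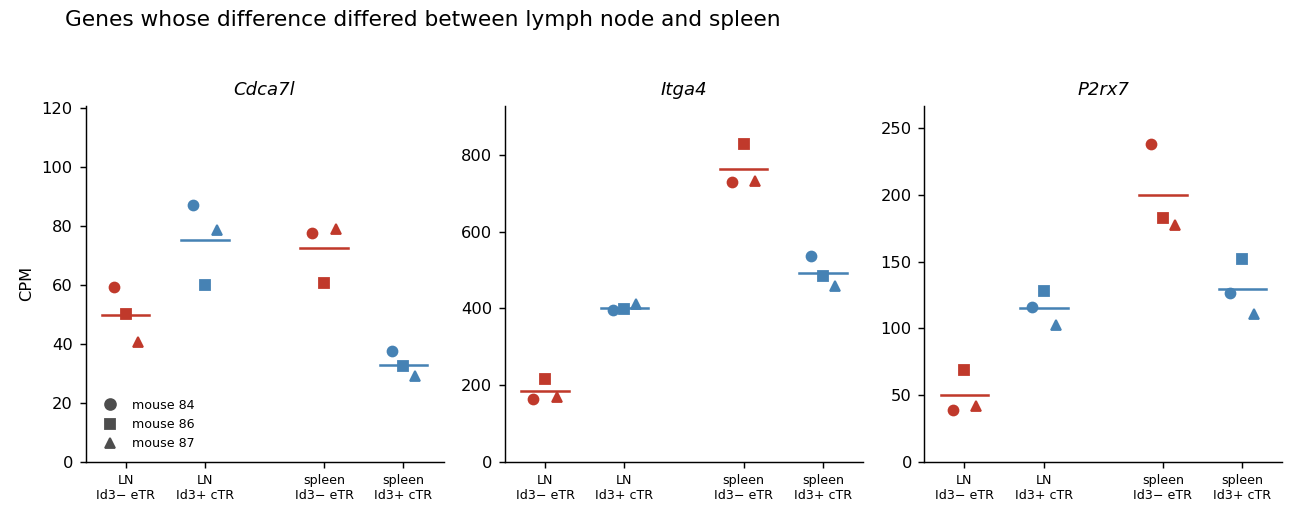
CPM of the 3 genes whose difference differed between the tissues, in Id3- eTR (red) and Id3+ cTR (blue) of lymph node and spleen (x axis), with 1 symbol per mouse and a line at the mean of 3. Itga4 and P2rx7 were lower in Id3- eTR than in Id3+ cTR in lymph node and higher in spleen. The means of Cdca7l lay in the same order, with a lymph node difference at an adjusted p of 0.0504 in edgeR, or 0.0295 with the mouse as a block.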

How the data were processed

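RNA-seq gene counts were used from 6 lymph node libraries (3 Id3- eTR and 3 Id3+ cTR), with the other 12 libraries in the same fit. Per the labels, 500 cells per library were sorted from CD4-enriched cells, amplified with SMART-Seq v4 and tagmented with a modified Nextera XT protocol. The authors deposited raw counts per gene for 37991 Ensembl identifiers. The submitters' processing notes name the aligners TopHat and Bowtie, the counter HTSeq 0.4.1, and SAMtools, Picard and FastQC, without saying what each did. The genome build, the removal of duplicate reads and the use of strand are not given in the sources used here. Without strand, reads of antisense and overlapping genes cannot be told apart. Gene symbols were matched for 32919 identifiers, and the 5072 others held 0.891% of counts.

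Genes with too few counts were removed (filterByExpr, minimum count 10), libraries were scaled by TMM, and edgeR 4.0.16 fitted a robust quasi-likelihood model with 1 mean for each of 6 groups over 18 libraries (12 residual degrees of freedom, common biological coefficient of variation 0.294). The median SE of a log2 fold change was 0.311. The exact number of cells behind a count is unknown beyond the 500 sorted, and amplified reads without molecular identifiers are not independent molecules. The fit was tested on simulated data. Alternatives were other scaling, no filter, DESeq2 1.42.0, limma 3.58.1 (voom), the mouse as a block, fewer libraries, each library left out, and scaling without the densest genes, the last chosen after seeing the data. All groups come from the same 3 mice. Deviations from the group means of libraries of the same mouse correlated at 0.0798, 0.0352 and 0.0284 for mice 84, 86 and 87, across genes.

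The members and gene lists were chosen with earlier results of these data known. Genes were named by rule: from each list up to 3 higher and 3 lower called members with the largest change (mean log2 CPM of at least 2 and 1 direction in 3 mice), and outside the lists the 10 highest and 10 lowest (at least 3), leaving out predicted genes and receptor segments. Other list members were named after their values were seen, and some that the rule picks are not reported here. R 4.3.3 and Python 3.11.15 were used.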

Additional observations from a re-analysis of the deposited data

Results flagged for a closer look

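The difference between Id3- eTR and Id3+ cTR differed between lymph node and spleen for 3 genes, by edgeR's interaction test. The change in lymph node minus that in spleen was -1.76 ± 0.17 for Itga4, -1.83 ± 0.29 for P2rx7 and -1.73 ± 0.28 for Cdca7l on the log2 scale (adjusted p = 0.000109 for Itga4, 0.038 for P2rx7 and 0.038 for Cdca7l). In 3 of 3 mice Itga4 was lower in Id3- eTR than in Id3+ cTR of lymph node and higher in spleen.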

How the results depend on the processing

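The number of called genes was 1599 with RLE size factors, 1487 with no filter, 1994 in DESeq2, 1798 in limma-voom, 1543 with the mouse as a block, 1827 from the 9 lymph node libraries, 1653 from the 6 libraries alone and 1601 without the densest genes, against 1610. It was 1118 to 1266 when 1 library was left out. Genes called lower numbered 385 to 440 when 1 library was left out, against 582, and genes called higher 732 to 826, against 1028. The interaction gave 47 genes in DESeq2, 1 in limma-voom, 1 from the 12 libraries of the 4 groups and 1 to 5 with 1 library left out, against 3. The cause was not tested.

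Of 144 called genes named by the rule, 100 were called under every alternative, 44 lost the call under at least 1 and 0 reversed. With the mouse as a block, 1465 of 1543 called genes were shared with the 1610. The interaction call of Cdca7l was lost in limma-voom (adjusted p = 0.169), from 12 libraries (0.121) and without any single library except the spleen Id3- eTR or lymph node Id3+ cTR library of mouse 86. That of P2rx7 was lost in limma-voom (0.0709), from 12 libraries (0.12) and without any single library except the spleen or lymph node Id3- eTR library of mouse 86.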

Other observations

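Of 22 genes of glucose use tested, 1 was higher and 2 lower, a share near the 12.9% called over all genes (0 higher without the Id3- eTR library of mouse 84 or 86 or the Id3+ cTR library of mouse 86 or 87). The lower ones were Eno3, a muscle-type enolase, and Pdk1, a kinase that holds back pyruvate dehydrogenase. Eno3 stood at 16.1, 8.04 and 6.42 CPM in Id3- eTR against 108, 104 and 107 CPM in Id3+ cTR (-3.39 ± 0.36, adjusted p = 5.72e-06 in edgeR), and Id3+ eTR overlapped Id3+ cTR at 58.8, 95.8 and 136 CPM. Pdk1 stood at 110.0, 99.4 and 109 CPM in Id3- eTR against 285, 303 and 311 CPM in Id3+ cTR (-1.50 ± 0.18, adjusted p = 2.08e-05). Among 8 genes known to answer STAT5, the factor downstream of IL-2, 3 were higher and 2 lower, or 1 lower without the Id3- eTR library of mouse 84 or 87 or the Id3+ cTR library of mouse 84 or 86. The higher ones were the feedback inhibitors Cish (0.86 ± 0.11, adjusted p = 2.54e-05) and Socs2 (0.82 ± 0.19, adjusted p = 0.00651) and the kinase Pim1 (0.97 ± 0.17, adjusted p = 0.000637). The lower ones were Bcl2, described above (-2.79 ± 0.13), and Pim2 (-0.79 ± 0.23, adjusted p = 0.0331), and the list median was -0.08.

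Ly6c1, which encodes a surface protein of resting T cells and endothelium, stood at 14.5, 27.4 and 22.1 CPM in Id3- eTR against 248, 209 and 226 CPM in Id3+ cTR (-3.41 ± 0.30, adjusted p = 6.37e-07). Usp18, an interferon-stimulated gene that dampens type I interferon signalling, stood at 70.7, 38 and 135 CPM in Id3- eTR against 265, 258 and 303 CPM in Id3+ cTR (-1.76 ± 0.33, adjusted p = 0.00166).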
